A study of Mus musculus with 32 samples.

Results

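The RNAs encoded by the mitochondrial genome were described in cultured mouse hippocampal neurons treated with forskolin, DHPG or vehicle. They were taken as every row of the total RNA count table whose symbol starts with mt-, which gave 37 of 51267 rows: 13 mRNAs, 2 rRNAs and 22 tRNAs. A filter on low counts left 17173 rows for testing, among them 19 mitochondrial rows, which were the 13 mRNAs, both rRNAs and 4 tRNAs. Together the 37 rows held 13.8% of all counts. The rRNAs held 12.7%, the mRNAs 1.10%, and the tRNAs 1862 counts in total.

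The mitochondrial genome is a small circle inherited apart from the nucleus and present in many copies per cell. It is transcribed by its own polymerase, Polrmt, from both strands into long precursors, from which the mRNAs, rRNAs and tRNAs are cut. The tRNAs lie between most of the other genes and mark many of the cutting sites. Its mRNAs code for core subunits of respiratory complexes I, III and IV and of the ATP synthase (complex V), while all other subunits and the protein factors of mitochondrial gene expression are coded in the nucleus. Most of its genes are read from the strand called heavy here, and mt-Nd6 with 8 tRNAs from the other, the light strand. Neurons depend on this respiratory chain for the ATP that synaptic signalling uses.

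Hippocampi came from mice at postnatal day 0, and the neurons were treated on day 16 in vitro for 30 min. The groups were 50 µM forskolin (FSK, 6 libraries), which activates adenylyl cyclase and raises cAMP, 30 µM DHPG (6 libraries), an agonist of group I metabotropic glutamate receptors, and an equal volume of DMSO (4 libraries). The labels do not say whether libraries of a group are separate cultures or animals, so p-values measure the spread between these libraries, which may be technical. Neuron markers were present throughout: 10 genes summed to between 2659 and 4551 CPM (counts after correction for each library's size and its TMM factor).

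Before any treatment is compared, the libraries have to be divided by their mitochondrial rRNA. In 7 libraries (DMSO 2 to 4, DHPG 6 and FSK 4 to 6) mt-Rnr1 plus mt-Rnr2 took 10.8 to 27.7% of counts, and in the other 9 (DMSO 1, DHPG 1 to 5 and FSK 1 to 3) 1.47 to 2.92%. No library lay near the limit of 5%. Total counts divide the libraries the same way, with at least 38409918 in the first set, called deep, and at most 24892959 in the second, called shallow. Of the 4 DMSO libraries 3 are deep, of the 6 DHPG libraries 1, and of the 6 FSK libraries 3. Library set and treatment are therefore partly tied together, most of all for DHPG against DMSO. FSK 4 and FSK 5 stand apart as well: 12 microglia markers summed to 221 and 381 CPM there and to between 23.0 and 55.6 CPM in each of the other 14, and neuron markers were lowest in these libraries at 2659 and 2879 CPM. None of the 12 microglia markers was at 0 in every library. The part of microglia in the results below was not tested. In RNA from whole cultures, fewer cells of a type and less RNA per cell cannot be told apart.

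**Figure D1:**
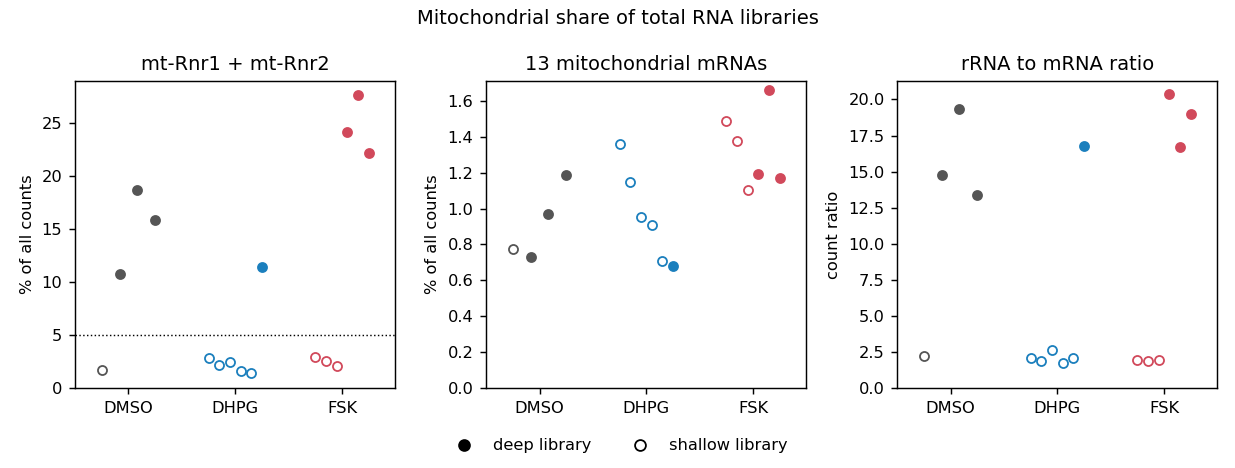
Share of counts in the mitochondrial rRNAs (left) and in the 13 mitochondrial mRNAs (middle), in % of all counts, and the ratio of rRNA to mRNA counts (right), with 1 point per library by treatment. Filled points are deep and open points shallow libraries, and the dotted line is the 5% limit. The rRNA share falls into separate ranges of 1.47 to 2.92% and 10.8 to 27.7%, while the mRNA share runs from 0.682 to 1.66% across both sets.

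The mRNA share overlapped between the library sets. Taken over counts other than mitochondrial rRNA, the 13 mRNAs held 0.718 to 1.53% in shallow and 0.770 to 2.30% in deep libraries. Within DMSO the mRNA share on this scale was 0.789, 0.820, 1.19 and 1.41% in DMSO 1 to 4. It ran from 0.718 to 1.40% in DHPG with a median of 0.949%, and from 1.13 to 2.30% in FSK with a median of 1.52%. The 3 groups overlap on it, and the highest value belongs to FSK 5. The ratio of rRNA to mRNA counts was 1.73 to 2.62 in shallow and 13.3 to 20.3 in deep libraries. Counting error is small beside these differences: the 95% Wilson interval of a library's rRNA share was at most 0.0128 percentage points to either side.

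Part of the mitochondrial mRNA count cannot be assigned to the organelle with certainty, because the nuclear genome carries copies of mitochondrial sequence. The counts are estimates that divide reads between similar transcripts, and a value that is not whole (beyond 0.0005) shows such a division. In gene order, mt-Nd1 and mt-Nd2 were whole in all 16 libraries, as were mt-Nd4, mt-Nd6, mt-Rnr1 and every tRNA. The rows from mt-Co1 through mt-Nd4l were divided, with mt-Co1, mt-Atp6 and mt-Co3 not whole in 16 of 16 libraries, mt-Nd3 in 15, mt-Co2 in 13, mt-Nd4l in 12 and mt-Atp8 in 8. In mt-Nd5 and mt-Cytb 6 and 4 libraries were not whole, and in mt-Rnr2 all 16 were.

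The nuclear copies can be named in part from the RefSeq annotation of GRCm38.p6. Gm10925 lies on chromosome 1 from 24613971 to 24614651 and is 681 bases long, the length of mt-Atp6 (MT, 7927 to 8607). Gm10222 lies on the same chromosome from 24612404 to 24612700 and is 297 bases long, the length of mt-Nd4l (MT, 9877 to 10173). The gap between them is 1270 bases, against 1269 bases between mt-Atp6 and mt-Nd4l. With Gm28437, Gm28438, Gm28661 and Gm29216, which the authors' deposited table also types as unprocessed pseudogenes, these rows held 2594506 counts. The nuclear rows took 26.0 to 44.6% of the counts of the mt-Co1 to mt-Nd4l block with its copies. Set against the block without mt-Co1 they took 79.4 to 94.0%, but they may include copies of mt-Co1, which could not be told apart. The split moved from library to library: of the counts of mt-Atp6 plus Gm10925, mt-Atp6 was given 25.8 to 52.1% in DHPG, 39.1 to 93.7% in FSK and 57.5 to 99.5% in DMSO. Rows of this block are therefore also given with their copies added, a step chosen after seeing the data.

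**Figure D2:**
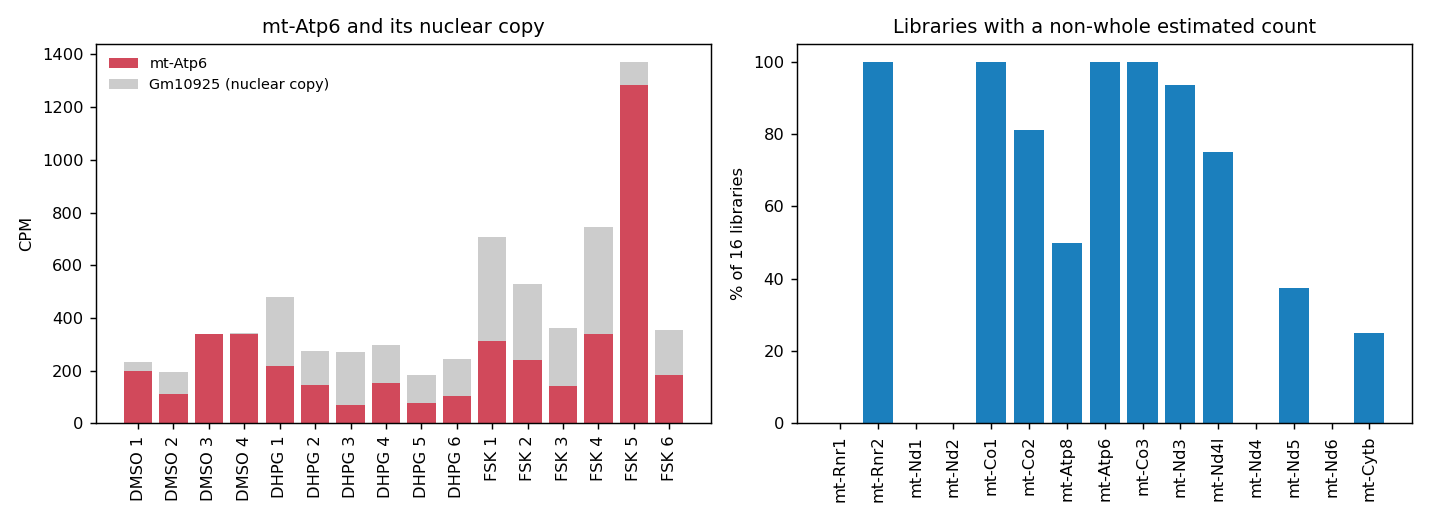
Left, stacked bars of mt-Atp6 and its nuclear copy Gm10925 in CPM for each library. Right, for each rRNA and mRNA in gene order, the percentage of the 16 libraries with an estimated count that is not whole. The copy takes from 1.85 to 407 CPM, almost none in DMSO 3 and DMSO 4, and the divided rows run from mt-Co1 to mt-Nd4l, beside mt-Rnr2, mt-Nd5 and mt-Cytb.

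Levels per length were very uneven for genes cut from shared precursors. On a scale of mean CPM per kilobase over all libraries, mt-Rnr2 stood at 56096 and mt-Rnr1 at 12596. Among the mRNAs mt-Co1 stood at 5342, then mt-Nd1 at 708, mt-Cytb at 568, mt-Atp6 at 390, mt-Co3 at 368, mt-Nd2 at 260, mt-Atp8 at 172, mt-Nd4 at 157 and mt-Nd5 at 116. The lowest were mt-Nd3 at 58.5, mt-Nd4l at 55.8, mt-Co2 at 20.8 and mt-Nd6 at 15.7. These means pool the 2 library sets and describe neither alone. Before division by length, mt-Rnr2 had a mean of 18582 CPM in shallow and 178951 CPM in deep libraries. For mt-Nd2 these means were 118 and 465 CPM, and for mt-Co3 289 and 288 CPM, so the order depends on the set. mt-Co1 made up 61.4 to 83.9% of mitochondrial mRNA counts, and its share was 79.3 to 83.9% in shallow and 61.4 to 74.7% in deep libraries, with no overlap. How far the split of reads sets the low levels in the divided block was not tested. In it mt-Co2 is listed at 0 in DHPG 2, DHPG 3 and DHPG 4, and mt-Nd3 in DMSO 4.

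In the comparison of FSK with DMSO, no mitochondrial row passed an adjusted p of 0.05 in the edgeR quasi-likelihood test, against 0.809% of all rows tested. At an unadjusted p under 0.05 there were 4 of 19 (mt-Co1, mt-Co3, mt-Cytb and mt-Tt), against 21.3% of all rows. Among the 13 mRNAs 9 had positive and 4 negative log2 fold changes, with a median of 0.57 beside 0.019 for all rows tested. That median was -0.11 without FSK 4 and FSK 5 and 0.011 without FSK 5 alone. It was 0.52 without FSK 4 alone, 0.42 within the shallow libraries, which hold neither, and 0.24 without both once a term for the library set was added. With that term and all libraries it was 0.67, and mt-Cytb then passed at 0.67 (adjusted p = 0.0414), as did 9.45% of all rows. DESeq2 called mt-Co3 beside 7.43% of all rows, and limma-voom called 10 mitochondrial rows beside 35.1%. Microglia markers moved in the same direction: 12 of 12 had an unadjusted p under 0.05, all higher in FSK, with a median of 3.27.

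In DHPG against DMSO no mitochondrial row passed either, while 1 row of the table did (0.00582%). At an unadjusted p under 0.05 there were 3 (mt-Nd2, mt-Nd4l and mt-Rnr1), against 12.4% of all rows. DESeq2 called none of them beside 0.0408% of all rows, and limma-voom 12 beside 34.6%. The median of the 13 mRNAs was -0.47, with 10 negative, beside -0.0065 for all rows. With the library-set term it was 0.078. Within the shallow libraries, which hold 1 of DMSO, it was 0.10, and within the deep libraries, which hold 1 of DHPG, it was -0.37.

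In FSK against DHPG 6 of 19 rows passed, against 30.8% of all rows. mt-Nd1, mt-Nd4, mt-Cytb, mt-Atp8 and mt-Atp6 were higher in FSK, 5 of 19 against 16.3% of all rows, and mt-Tt was lower, 1 of 19 against 14.4%. At an unadjusted p under 0.05 there were 12 of 19, against 45.2% of all rows. The median of the mRNAs was 0.86, with 11 positive, and it was 0.59 with the library-set term and 0.49 without FSK 4 and FSK 5. No mitochondrial row separated FSK from DHPG completely, where 3.21% of all rows did so with FSK higher and 4.03% with FSK lower. Of the microglia markers 9 of 12 were called higher in FSK than in DHPG, and of 10 neuron markers 2 were called higher and 4 lower. The number that passed was 2 (mt-Cytb and mt-Tt) with the library-set term, beside 23.3% of all rows. It was also 2 without FSK 5, without DHPG 3 or without DHPG 5, beside 10.6, 11.2 and 13.9% of all rows. It was 4 without FSK 4, 3 without DHPG 2 and 10 without DHPG 6, beside 15.1, 17.7 and 32.1%. It was 0 without FSK 4 and FSK 5. Without those 2 libraries only 3 rows of the whole table passed. Comparisons with DMSO share its 4 libraries, and those with FSK or DHPG likewise share theirs.

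**Figure D3:**
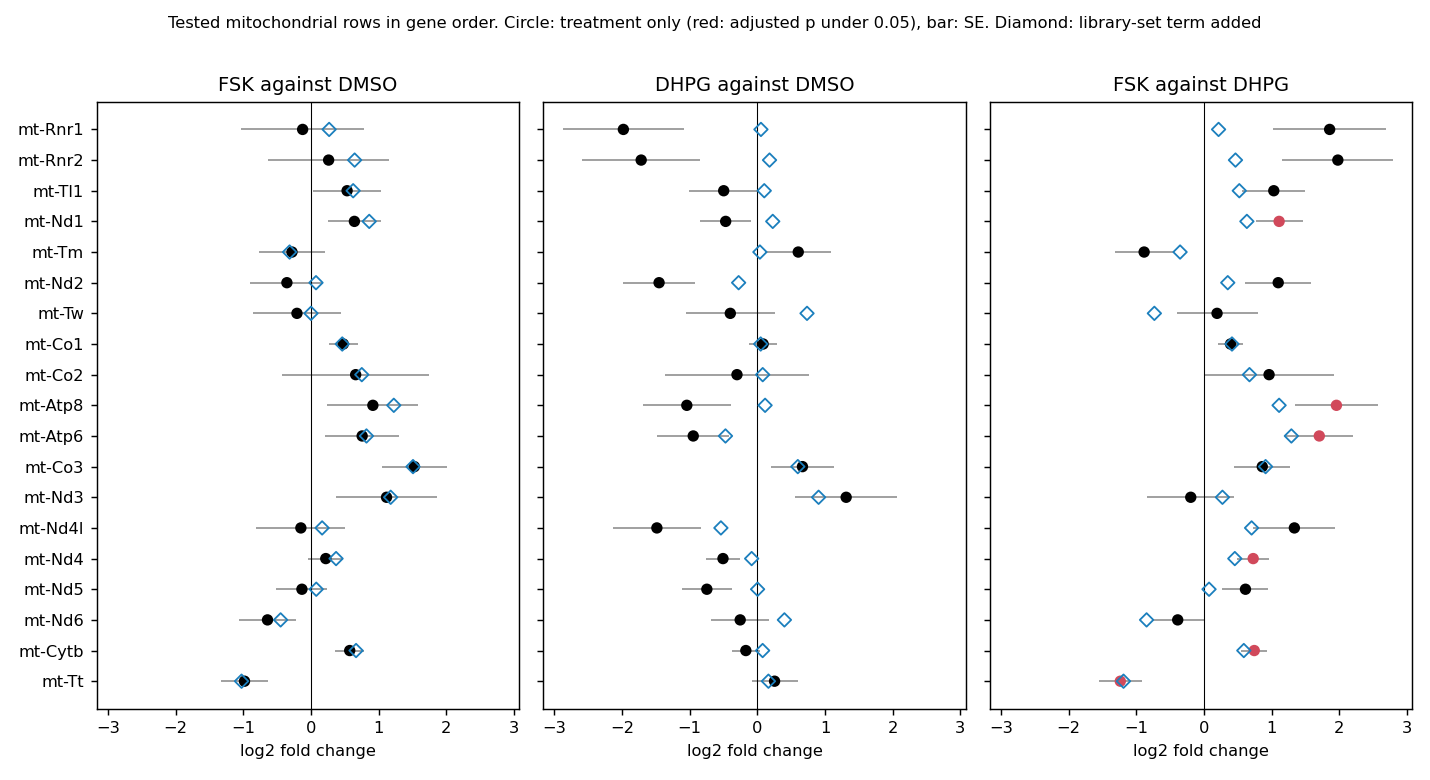
Log2 fold change of the 19 tested mitochondrial rows in gene order for the 3 comparisons. Circles with bars are estimates and standard errors with treatment alone, red where the adjusted p is under 0.05, and open diamonds are estimates with a library-set term. The sets were cut on the rRNAs, so their diamonds are fixed by that choice. The term leaves mt-Co3 and mt-Tt almost in place in FSK against DMSO.

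The rRNAs, scaffolds of the mitochondrial ribosome, varied widely between libraries. mt-Rnr2 (MT, 1094 to 2675), the large-subunit rRNA, stood at 14698, 95073, 181199 and 145230 CPM in DMSO 1 to 4. It ran from 12180 to 109507 CPM in DHPG with a median of 20451, and from 17254 to 286882 CPM in FSK with a median of 113999. Every low value is a shallow library and every high value a deep one. mt-Rnr1 (MT, 70 to 1024), the small-subunit rRNA, ran from 2059 to 31406 CPM in DMSO, from 1605 to 14545 CPM in DHPG and from 2055 to 33052 CPM in FSK.

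Neither rRNA passed in any comparison. For mt-Rnr2 the log2 fold change was 0.26 ± 0.89 (SE) in FSK against DMSO, -1.72 ± 0.87 in DHPG against DMSO (adjusted p = 0.406) and 1.98 ± 0.82 in FSK against DHPG (adjusted p = 0.0732). Within the deep set the rRNA share was 22.2 to 27.7% in 3 FSK libraries, 10.8 to 18.7% in 3 DMSO libraries and 11.4% in DHPG 6. Within the shallow set it was 2.12 to 2.92% in FSK, 1.74% in DMSO 1 and 1.47 to 2.87% in DHPG. FSK thus lay above DMSO in both sets, with 1 DMSO library in the shallow set. The sets were cut by this share, so these are descriptions.

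The ratio of the 2 rRNAs, which come from the same precursor, needs no scaling between libraries. However, mt-Rnr2 was not whole in 16 of 16 libraries and mt-Rnr1 in 0, and the part of that division of reads in the ratio was not tested. mt-Rnr2 counts were 7.14, 7.32, 5.77 and 6.23 times mt-Rnr1 counts in DMSO 1 to 4. The ratio ran from 6.61 to 8.35 in DHPG and from 6.16 to 9.84 in FSK, where FSK 6 was the lowest and the other 5 lay above every DMSO and DHPG library. The log2 ratio was 2.72 ± 0.16 (SD, n = 4) in DMSO, 2.89 ± 0.12 in DHPG and 3.09 ± 0.25 in FSK (n = 6 each). The difference of 0.37 between FSK and DMSO gave p = 0.0381 in a two-sided exact permutation test, or 0.0762 adjusted over 6 ratio tests. Without FSK 6 it was 0.47 with an adjusted p of 0.0143 in the same exact permutation test, and the difference from DHPG was 0.29 with an adjusted p of 0.0130. FSK 6 is the library that lies against the others, so leaving it out favours a small p and is no support. In the same test, leaving out any other library gave adjusted p of 0.0762 to 0.157 against DMSO and of 0.0987 to 0.210 against DHPG.

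**Figure D4:**
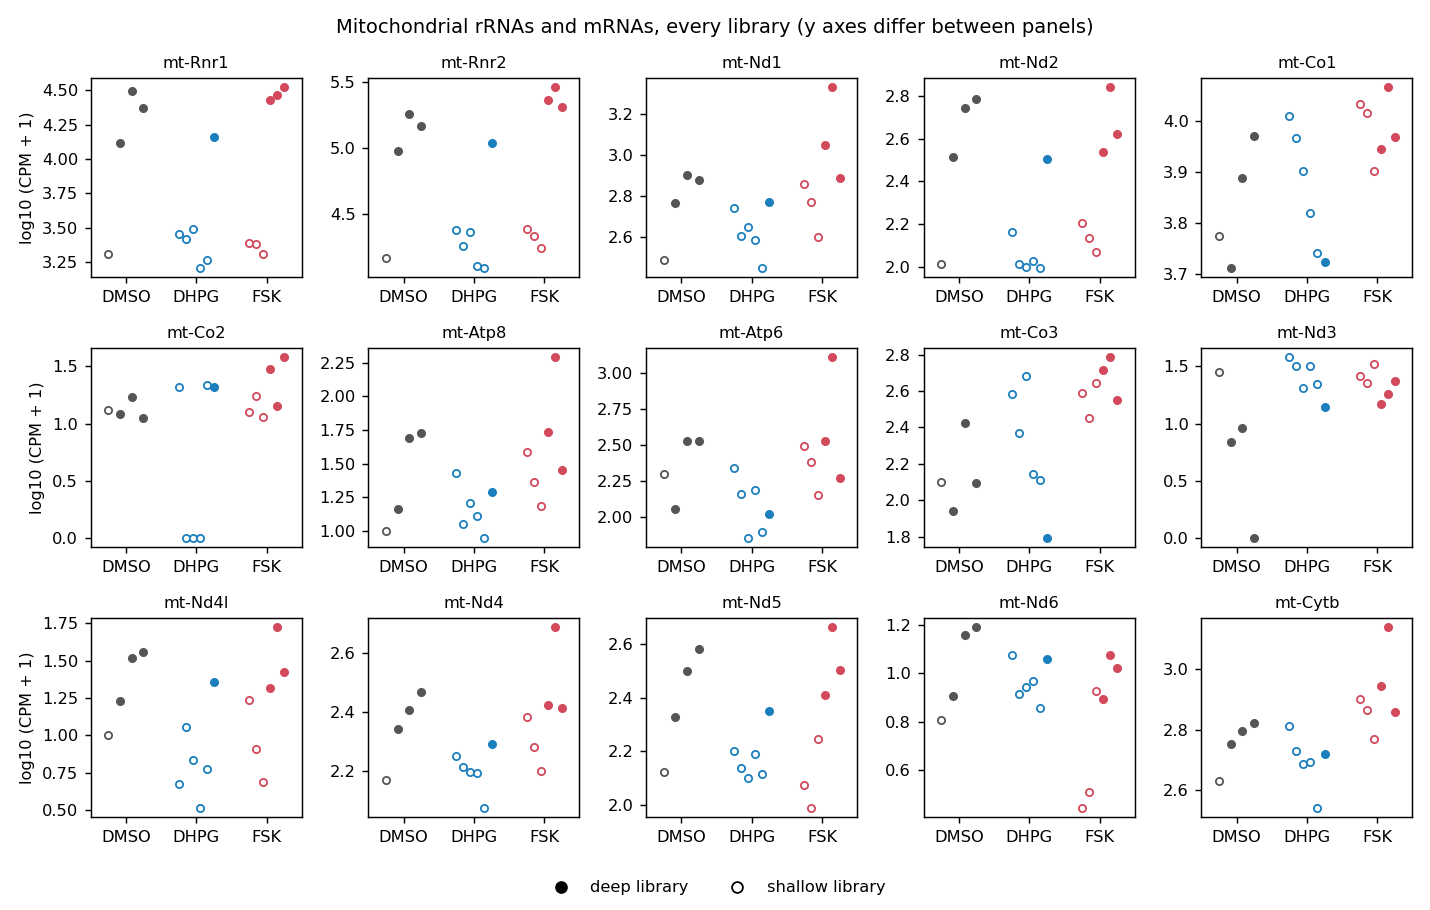
Level of both rRNAs and the 13 mRNAs in every library as log10 of CPM plus 1, in gene order, by treatment, with filled points for deep and open points for shallow libraries. The vertical axes differ between panels. Both rRNAs, mt-Nd2 and mt-Nd5 separate the sets completely, mt-Co1 and mt-Co3 do not, and FSK 5 is the highest FSK point in every panel but those of mt-Rnr1, mt-Co2 and mt-Nd3.

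Complex I, which takes electrons from NADH, has 7 mitochondrial subunits. mt-Nd1 (MT, 2751 to 3707) stood at 307, 587, 801 and 757 CPM in DMSO 1 to 4, at 280 to 593 CPM in DHPG with a median of 425, and at 397 to 2140 CPM in FSK with a median of 747. Of the FSK libraries 4 lay above every DHPG library, and FSK 5 stood far above the next at 1118 CPM. The FSK to DHPG log2 fold change was 1.11 ± 0.35 (adjusted p = 0.0284), 0.64 with the library-set term (adjusted p = 0.0745) and 0.70 without FSK 5 (adjusted p = 0.0836). mt-Nd4 (MT, 10167 to 11544), in the proton-pumping arm, gave 0.73 ± 0.23 (adjusted p = 0.0301), 0.46 with the term (adjusted p = 0.0658) and 0.47 without FSK 5 (adjusted p = 0.0773).

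The remaining complex I mRNAs passed in no comparison. mt-Nd2 (MT, 3914 to 4951) stood at 103 CPM in DMSO 1 and at 327, 551 and 608 CPM in DMSO 2 to 4. It ran from 97.9 to 319 CPM in DHPG, where DHPG 6 was highest, and from 117 to 687 CPM in FSK. Its log2 fold change was -1.45 ± 0.54 in DHPG against DMSO (adjusted p = 0.400) and -0.28 with the library-set term. mt-Nd5 (MT, 11742 to 13565) gave -0.75 ± 0.37 in DHPG and -0.13 ± 0.38 in FSK against DMSO. mt-Nd4l, whose 3' end overlaps mt-Nd4 by a few bases, gave -1.48 ± 0.66 in DHPG against DMSO, and -0.83 once Gm10222 was added. mt-Nd3 (MT, 9459 to 9806) gave 1.12 ± 0.75 in FSK and 1.31 ± 0.75 in DHPG against DMSO, with 0 listed in DMSO 4.

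mt-Nd6 (MT, 13552 to 14070) is the only mRNA read from the light strand, and it lies next to mt-Nd5 on the opposite strand. Its levels were 5.39, 7.05, 13.5 and 14.5 CPM in DMSO 1 to 4, 6.17 to 10.9 CPM in DHPG and 1.76 to 10.9 CPM in FSK, and no comparison of the level passed. The counts behind them were 41 to 627 per library. Its ratio to mt-Nd5 within each library, however, separated DHPG from the other groups, but not FSK from DMSO. The ratio was 0.0408, 0.0332, 0.0429 and 0.0382 in DMSO 1 to 4, ran from 0.0468 to 0.0687 in DHPG, and from 0.0149 to 0.0428 in FSK. All 6 DHPG libraries lay above all DMSO and all FSK libraries, while 5 of 6 FSK libraries lay below every DMSO library and FSK 3 lay within their range.

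On the log2 scale the mt-Nd6 to mt-Nd5 ratio was -4.70 ± 0.16 in DMSO (n = 4), -4.19 ± 0.22 in DHPG and -5.29 ± 0.50 in FSK (SD, n = 6 each). DHPG exceeded DMSO by 0.51 (p = 0.00952, adjusted over 6 tests 0.0286, two-sided exact permutation test). FSK was below DHPG by a log2 difference of -1.10 (p = 0.00216, the smallest the exact permutation test can give here, adjusted 0.0130). The FSK to DMSO difference of -0.59 did not pass (p = 0.0524, adjusted 0.0786, exact permutation test), and without FSK 3, the library within the DMSO range, it was -0.74 (adjusted p = 0.0317, exact permutation test). FSK 3 lies against the other FSK libraries, so leaving it out favours a small p and is no support. Leaving out any other library gave adjusted p of 0.0667 to 0.157 in this comparison. Within the shallow libraries the differences were 0.47 for DHPG against DMSO and -1.21 for FSK against DHPG, and within the deep libraries 0.31 and -0.81. The shallow set holds 1 DMSO library and the deep set 1 DHPG library. These sets are too small to pass: for DHPG against DMSO the exact permutation test cannot go below 0.167 in the shallow and 0.25 in the deep set. Without DMSO 2 the DHPG to DMSO difference was 0.43 (adjusted p = 0.0893, exact permutation test). The genes overlap by a few bases and whether counting used the strand is not given in the sources used here, so reads of the overlap cannot be told apart. mt-Nd5 was also not whole in 6 of 16 libraries and mt-Nd6 in 0, and the part of that division of reads in the ratio was not tested.

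**Figure D5:**
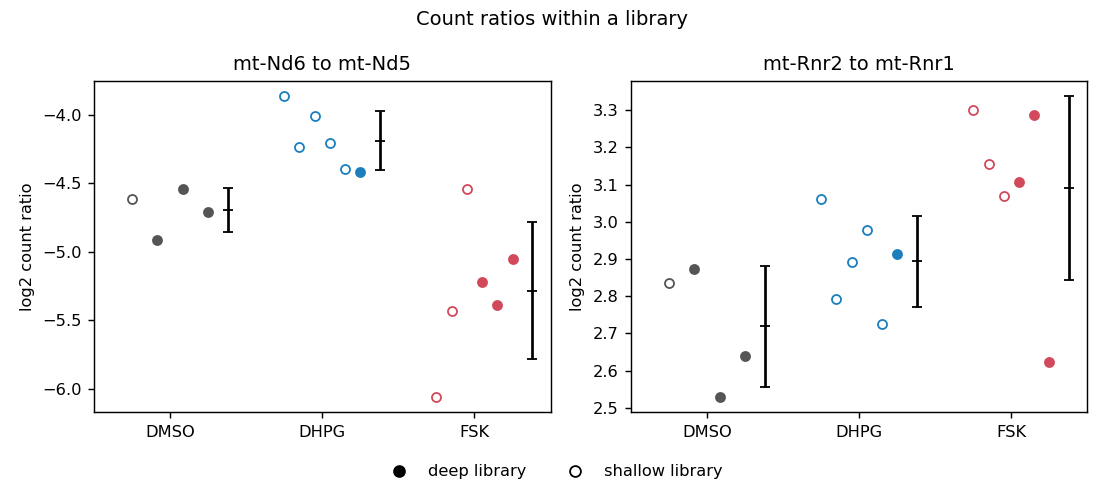
Log2 ratio of mt-Nd6 to mt-Nd5 counts (left) and of mt-Rnr2 to mt-Rnr1 counts (right) within each library, by treatment, with the mean and SD of each group beside its points. Filled points are deep and open points shallow libraries. On the left DHPG lies at -4.42 to -3.86, above all DMSO libraries at -4.91 to -4.54 and all FSK libraries at -6.06 to -4.55.

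Complex III has a single mitochondrial subunit, cytochrome b, from mt-Cytb (MT, 14145 to 15288). It stood at 426, 565, 624 and 663 CPM in DMSO 1 to 4, at 346 to 649 CPM in DHPG with a median of 509, and at 587 to 1370 CPM in FSK with a median of 765. Of the FSK libraries 5 lay above every DMSO and every DHPG library. The log2 fold change was 0.74 ± 0.19 against DHPG (adjusted p = 0.0176), and 0.56 without FSK 5 (adjusted p = 0.0444). Against DMSO it was 0.57 ± 0.21 (adjusted p = 0.148). Without FSK 4 and FSK 5 these values were 0.49 (adjusted p = 0.0937) and 0.32 (adjusted p = 0.309).

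Complex IV, cytochrome c oxidase, has 3 mitochondrial subunits at its catalytic core. mt-Co1 (MT, 5328 to 6872), which carries the haem groups, stood at 5964, 5144, 7744 and 9356 CPM in DMSO 1 to 4, at 5284 to 10244 CPM in DHPG and at 7978 to 11652 CPM in FSK. The groups overlap, and the log2 fold change was 0.48 ± 0.21 in FSK (adjusted p = 0.203) and 0.085 ± 0.21 in DHPG against DMSO. mt-Co2 gave 0.66 ± 1.08 and -0.30 ± 1.06.

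mt-Co3 (MT, 8607 to 9390) had the largest log2 fold change of the mitochondrial mRNAs in FSK against DMSO. It stood at 126, 86.3, 263 and 124 CPM in DMSO 1 to 4, and at 385, 284, 438, 519, 609 and 356 CPM in FSK 1 to 6. All 6 FSK libraries lay above all 4 DMSO libraries, as 3.62% of rows tested did, while 4.36% lay below throughout. The log2 fold change was 1.53 ± 0.48 (adjusted p = 0.106), 1.63 in deep and 1.56 in shallow libraries, and 1.29 without FSK 4 and FSK 5 (adjusted p = 0.201). In the authors' deposited table it is 1.51 with an adjusted p of 0.000217, the only mitochondrial row under 0.05 there in either comparison, of 19 with an adjusted p. The share of all rows under 0.05 in that table was not counted, and DESeq2 here called mt-Co3 beside 7.43% of all rows. DHPG ran from 60.6 to 482 CPM, across the whole DMSO range, with a log2 fold change of 0.67 ± 0.47 against DMSO. mt-Co3 lies in the divided block. Summed with its mitochondrial neighbours and the 6 nuclear rows into a single value, the block gave 0.62 ± 0.23 in FSK against DMSO (adjusted p = 0.148), 0.26 ± 0.23 in DHPG against DMSO and 0.37 ± 0.20 in FSK against DHPG.

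Complex V, the ATP synthase, has 2 mitochondrial subunits, and mt-Atp8 (MT, 7766 to 7969) and mt-Atp6 overlap on 1 transcript. mt-Atp6 stood at 198, 112, 337 and 338 CPM in DMSO 1 to 4, at 70.1 to 218 CPM in DHPG with a median of 124, and at 141 to 1285 CPM in FSK with a median of 275. FSK 5 was the highest, and the other 5 FSK libraries reached at most 338 CPM. Against DHPG the log2 fold change was 1.71 ± 0.50 (adjusted p = 0.0232), and without FSK 5 it was 0.93 (adjusted p = 0.0704). mt-Atp8 ran from 7.81 to 25.8 CPM in DHPG and from 14.3 to 193 CPM in FSK, with 1.96 ± 0.61 against DHPG (adjusted p = 0.0278) and 1.05 without FSK 5 (adjusted p = 0.110).

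Adding the nuclear copy moved the values of mt-Atp6 in both comparisons with DMSO. The sum of mt-Atp6 and Gm10925 was 232, 195, 339 and 341 CPM in DMSO 1 to 4 and 707, 530, 361, 745, 1371 and 352 CPM in FSK 1 to 6. Every FSK library lay above every DMSO library, as for 3.62% of rows tested, but FSK 6 at 352 CPM only just exceeded DMSO 4 at 341 CPM. This sum was chosen after seeing the data. It was not fitted without FSK 4 or FSK 5, its highest libraries. In DHPG the sum was 479, 275, 272, 296, 181 and 244 CPM. The log2 fold change of the sum was 1.29 ± 0.36 in FSK against DMSO (adjusted p = 0.0829, or 0.0356 with the library-set term), against 0.76 ± 0.55 for mt-Atp6 alone (adjusted p = 0.452). With that term 9.45% of all rows passed in the fit without sums. In DHPG against DMSO the sum gave 0.073 ± 0.35, where mt-Atp6 alone gave -0.95 ± 0.53. In FSK against DHPG the sum was 1.22 ± 0.31 (adjusted p = 0.0177).

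The tRNAs, which also mark cutting sites in the precursors, had few counts in these libraries. A library held 39 to 235 tRNA counts in all. Of the 22 rows 4 were tested, and the other 18 had totals of 4 to 80 counts over 16 libraries. A count of 0 allows up to 0.0533 to 0.151 CPM depending on the library (3 counts, counting error only). The rows with the highest mean CPM were mt-Tm (403 counts), mt-Tw (354), mt-Tt (252), mt-Tl1 (275) and mt-Tv (70). The 8 light-strand tRNAs summed to 341 counts and the 14 heavy-strand tRNAs to 1521.

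mt-Tt (MT, 15289 to 15355), the threonine tRNA that follows mt-Cytb directly, was the only called row that was lower in FSK. It had 11, 32, 23 and 19 counts in DMSO 1 to 4, 15, 13, 25, 20, 8 and 23 in DHPG 1 to 6, and 5, 8, 13, 11, 13 and 13 in FSK 1 to 6. In CPM these were 0.440 to 0.833 in DMSO, 0.363 to 1.26 in DHPG and 0.195 to 0.477 in FSK, where 5 of 6 libraries lay below every DMSO and below every DHPG library. The log2 fold change was -1.23 ± 0.32 against DHPG (adjusted p = 0.0177) and -0.98 ± 0.34 against DMSO (adjusted p = 0.128). Without FSK 4 and FSK 5 the first was -1.11 (adjusted p = 0.0962). mt-Tm, the methionine tRNA, ran from 0.301 to 1.94 CPM in DMSO, from 0.407 to 1.82 in DHPG and from 0.515 to 1.04 in FSK. For mt-Tw (tryptophan) the log2 fold changes were between -0.40 and 0.19, and for mt-Tl1 (leucine) between -0.50 and 1.03, none passing.

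Between the library sets the members moved by very different amounts, and in both directions. With treatment in the model, the deep minus shallow difference on the log2 scale was 3.37 for mt-Rnr1 and 3.23 for mt-Rnr2, which defined the sets. Of the mRNAs 10 were higher and 3 lower in deep libraries, with a median of 0.86. Over all rows tested the median was 0.00436 and the range from the 5th to the 95th percentile was -0.69 to 1.38. The largest were mt-Nd2 at 1.85, mt-Nd4l at 1.83, mt-Atp8 at 1.59, mt-Nd5 at 1.17 and mt-Nd1 at 1.06. mt-Nd2 ran from 97.9 to 160 CPM in shallow and from 319 to 687 CPM in deep libraries, and mt-Nd5 from 96.2 to 175 and from 212 to 458 CPM, without overlap. These 2 of 13 mRNAs stand beside 6.03% of all rows that were higher in every deep library than in any shallow one, and 3.59% that were lower.

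mt-Nd6 at 0.99, mt-Co2 at 0.86 and mt-Atp6 at 0.74 were also higher in the deep set. The difference was -0.054 for mt-Co1, -0.091 for mt-Co3, 0.39 for mt-Cytb and 0.67 for mt-Nd4, while mt-Nd3 stood at -1.23. Among the tRNAs mt-Tw was at 2.03, mt-Tl1 at 0.99, mt-Tt at -0.13 and mt-Tm at -1.23. mt-Tm and mt-Tw flank mt-Nd2 on the same strand and were the lowest and the highest of the 4 tested tRNAs. Depth splits the libraries the same way and cannot be told apart from the rRNA share. Sums of other marker lists moved with the sets too, though not every member did. The 9 endothelial, mural and fibroblast markers summed to 77.6 to 233 CPM in deep and 42.3 to 55.8 CPM in shallow libraries. The 8 astrocyte markers summed to 5961 to 7475 and 3236 to 5444 CPM, and neither sum overlapped. In the first list the collagens Col1a1 and Col1a2 stood at 2.25 and 2.35, Pecam1 at 0.44 and Rgs5 at -1.25. Among the astrocyte markers Gfap stood at 1.08 and Aldh1l1 at -0.39. The part of these cell types in the differences was not tested.

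The nuclear genes that transcribe and process mitochondrial RNA were followed by lists. Pnpt1, the polynucleotide phosphorylase of the mitochondrial RNA degradosome, was the only called member of any list in FSK against DMSO, 1 of 23 processing and decay genes beside 0.349% of all rows called higher. It stood at 11.4, 11.4, 11.9 and 15.7 CPM in DMSO 1 to 4 and at 20.3, 19.7, 18.8, 22.2, 23.9 and 22.4 CPM in FSK 1 to 6. The groups do not overlap, as for 3.62% of rows tested with FSK higher, and DHPG lay at 9.95 to 14.8 CPM. The log2 fold change was 0.75 ± 0.14 against DMSO (adjusted p = 0.0241) and 0.80 ± 0.12 against DHPG (adjusted p = 0.0164). Against DMSO it was 0.69 without FSK 4 and FSK 5 (adjusted p = 0.0788), 0.72 without FSK 5 (0.0543), and 0.71, 0.72 and 0.73 without DMSO 1, 2 or 3 (adjusted p = 0.0659, 0.0914 and 0.131).

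None of 16 transcription and replication genes, 9 biogenesis regulators, 10 translation factors and 28 nuclear respiratory chain subunits passed in FSK against DMSO. At an unadjusted p under 0.05 there were 5, 3, 2 and 5 of them, beside 21.3% of all rows. Mterf3, a regulator of mitochondrial transcription, gave 0.47 ± 0.13 (adjusted p = 0.0824), and Ssbp1, the single-stranded DNA binding protein, 0.46 ± 0.15. Polrmt gave -0.41 ± 0.17, the packaging factor Tfam 0.18 ± 0.12, the mRNA-stabilising Lrpprc -0.0024 ± 0.12 and the coactivator Ppargc1a 0.037 ± 0.18. Esrra gave -0.44 ± 0.18, Gabpa 0.46 ± 0.21, Mtif2 0.30 ± 0.14 and Tufm -0.28 ± 0.13. The respiratory subunits Cox6a1 and Atp5d gave -0.56 ± 0.13 and -0.55 ± 0.16 (adjusted p = 0.0591 and 0.0955).

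In DHPG against DMSO no gene of these lists passed in edgeR. At an unadjusted p under 0.05 there were 1 of 16 transcription, 2 of 23 processing, 1 of 9 biogenesis and 1 of 10 translation genes and 5 of 28 respiratory subunits. All of these counts stand beside 12.4% of all rows. Of the subunits 25 had positive values, with a median of 0.32, which was 0.066 with the library-set term, -0.071 in shallow and 0.18 in deep libraries. The members of smallest p were Top1mt (0.32 ± 0.15) and Polg (0.23 ± 0.11), Rexo2 (-0.28 ± 0.11) and Slirp (0.68 ± 0.27), Ppargc1a (-0.50 ± 0.18) and Pprc1 (-0.30 ± 0.16), Gfm2 (0.31 ± 0.11) and Mrrf (0.24 ± 0.13), and Atp5c1 (0.36 ± 0.15) and Cox6c (0.42 ± 0.18).

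Nuclear partners of the mitochondrial mRNAs differed between FSK and DHPG. Of 28 nuclear respiratory chain subunits 20 were called lower in FSK than in DHPG and none higher, beside 14.4% of all rows called lower. All 28 had negative values, with a median log2 fold change of -0.49. Their summed level was 3761 to 5659 CPM in FSK and 5667 to 8177 CPM in DHPG, and 7415, 4856, 5318 and 4796 CPM in DMSO 1 to 4. It was lowest in FSK 5 and FSK 4, the libraries with the most microglia markers and the fewest neuron markers. Uqcrc1 of complex III gave -0.63 ± 0.15 (adjusted p = 0.0168), Atp5a1 of complex V -0.58 ± 0.15, Ndufb8 of complex I -0.56 ± 0.15 and Cox6a1 of complex IV -0.53 ± 0.12. The mitochondrially coded mRNAs of the same complexes had a median of 0.86 in this comparison, the opposite sign. With the library-set term the medians were 0.59 for these mRNAs and -0.37 for the nuclear subunits. The library sets showed opposite signs as well. The nuclear subunits summed to a median of 4856 CPM in deep (3761 to 5667) and 6604 CPM in shallow libraries (5312 to 8177). The mRNAs had a median deep minus shallow difference of 0.86. With the library-set term 19 of 28 nuclear subunits were called lower, beside 23.3% of all rows called in either direction. Within the shallow libraries none passed with a median of -0.32, and without FSK 4 and FSK 5 none passed with a median of -0.35. Without those 2 libraries but with the term, 9 of 28 were called lower, beside 9.27% of all rows called.

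In the same comparison the machinery lists held genes in both directions, in numbers to be read beside the 30.8% of all rows called. Among transcription and replication genes Mterf3 was higher (0.53 ± 0.11) and the polymerase Polg (-0.51 ± 0.10) and helicase Twnk (-0.30 ± 0.10) lower, 3 of 16. Of the 23 processing and decay genes 3 were called higher and 4 lower. Among them were Pnpt1 and the CCA-adding enzyme Trnt1 (0.50 ± 0.15) and, lower, Tbrg4 (-0.46 ± 0.11) and Fastk (-0.41 ± 0.11). Of the 9 biogenesis regulators Gabpa (0.79 ± 0.18), Esrrg (0.60 ± 0.21) and Ppargc1a (0.54 ± 0.16) were higher and Esrra (-0.50 ± 0.16) lower. Of the 10 translation factors Mtrf1l (0.43 ± 0.13) was higher, and Tufm (-0.44 ± 0.12), Tsfm (-0.44 ± 0.16) and Mtif3 (-0.32 ± 0.11) lower. Without FSK 4 and FSK 5 none of these lists had a member that passed. With the library-set term added, 2 transcription genes and 1 gene of each other list did, beside 9.27% of all rows.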

How the data were processed

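Total RNA of 16 libraries was used, and miRNA libraries were not analysed here. Per the labels, the kit was TruSeq Stranded Total RNA. Per the submitters' processing notes, the authors used Salmon, GRCm38 and DESeq, with no versions given. The deposited values are estimated counts per gene, and 26.6% are not whole. They were rounded for tests. The authors' deposited tables give log2 fold changes, p-values and adjusted p-values. Control columns were matched to DMSO samples by number. Libraries held 20677117 to 59958600 counts.

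edgeR 4.0.16 (R 4.3.3) fitted all 16 libraries with TMM factors, filterByExpr (minimum count 10), the robust quasi-likelihood F test and Benjamini-Hochberg adjustment over 17173 rows, with a limit of 0.05. CPM are given per library, errors of log2 fold changes are SE. Ratios used exact permutation tests. limma 3.58.1 and DESeq2 1.42.0 served as alternatives, with the library-set term, subsets of libraries and scalings. The fits were tested on simulated data. Coordinates and lengths are RefSeq GRCm38.p6, in which all 37 rows matched. All rRNAs and mRNAs are named, tRNAs by level or call, and nuclear genes by smallest p (up to 4 called per list and comparison, otherwise 2), with Polrmt, Tfam, Lrpprc and Ppargc1a always. The members and lists were chosen with earlier results of these data known.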

Additional observations from a re-analysis of the deposited data

Results flagged for a closer look

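In groups of 4 to 6 libraries, the gap between an extreme library and its nearest neighbour was compared with the range of the group for 21 measures in 3 treatments. Of these 63 groups 11 had an outlying library. Chance gives about 1 in 20 for independent groups, but these measures come from the same libraries and are not independent. mt-Rnr1 and mt-Rnr2 also defined the library sets, so the count cannot be compared with chance. FSK 5 was the highest FSK library for mt-Atp6 at 1285 CPM (others 141 to 338), mt-Atp8 at 193 CPM (14.3 to 53.4), mt-Cytb at 1370 CPM (587 to 875), mt-Nd4 at 483 CPM (157 to 263) and mt-Tl1 at 1.77 CPM (0.258 to 0.725). DHPG 6, the only deep DHPG library, was the highest for mt-Rnr1 at 14545 CPM (others 1605 to 3079), mt-Rnr2 at 109507 CPM (12180 to 23802), mt-Nd2 at 319 CPM (97.9 to 146) and mt-Nd5 at 224 CPM (125 to 158). mt-Tm was highest in FSK 2 at 1.04 CPM (others 0.515 to 0.687). The log2 ratio of mt-Rnr2 to mt-Rnr1 was lowest in FSK 6 at 2.62 (others 3.07 to 3.30).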

How the results depend on the processing

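The mitochondrial calls in FSK against DHPG (6) were 2 with the library-set term and with no filter, beside 23.3 and 8.22% of all rows. A replicate block gave 3 beside 24.3%. There were 0 mitochondrial calls in deep libraries, in shallow libraries and without FSK 4 and FSK 5, with or without the term. In FSK against DMSO (0) they were 1 with DESeq2 (mt-Co3), 1 with the library-set term (mt-Cytb), 1 with the replicate block (mt-Co3) and 10 with limma-voom with quality weights. In DHPG against DMSO (0) limma-voom gave 12. That method called 6033 and 5940 rows of the whole table in these comparisons, against 139 and 1, and gave mt-Rnr2 at -2.38 in FSK against DMSO, a reversal. Leaving out 1 library gave 2 to 10, 0 to 0 and 0 to 0 calls. The median of the mRNAs in FSK against DMSO was -0.24 with limma-voom and -0.11 without FSK 4 and FSK 5, 0.42 in shallow libraries, and 0.011 to 0.66 over single libraries left out. In DHPG against DMSO it was 0.078 with the term and 0.10 in shallow but -0.37 in deep libraries (-0.67 to -0.31 over single libraries). In FSK against DHPG it was 0.59 with the term, 0.44 in shallow and 0.75 in deep libraries. There it was 0.49 without FSK 4 and FSK 5 and 0.43 with the term too (0.70 to 1.05 over single libraries).

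The whole-table count in FSK against DMSO (139) was 83 with those groups alone, 1276 with DESeq2, 62 without TMM, 1622 with the term, 66 without a filter, 531 with the block, 11 in shallow libraries, 38 without FSK 4 and FSK 5 and 56 with the term too (12 to 427 over single libraries). In FSK against DHPG (5283) it was 0 in deep and 9 in shallow libraries, 2510 without TMM, 2905 without a filter, 3 without FSK 4 and FSK 5 and 1551 with the term too (1804 to 5798). In DHPG against DMSO (1) it was 7 with DESeq2 and 0 with those groups alone, in deep or shallow libraries, with the term, with the block, and without FSK 4 and FSK 5 with or without the term (0 to 5).

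The mt-Nd6 to mt-Nd5 difference in DHPG against DMSO was 0.31 in deep and 0.47 in shallow libraries and 0.62 over pairs of equal number (replicate block), and 0.43 to 0.56 over single libraries. In FSK against DHPG it was -0.81, -1.21 and -1.10, and -1.25 to -0.94. These smaller designs did not pass, and over pairs the exact permutation test cannot go below 0.125 and 0.0313. In FSK against DMSO single libraries gave -0.74 to -0.43. For mt-Rnr2 to mt-Rnr1 they gave 0.31 to 0.47, 0.11 to 0.23 and 0.16 to 0.29 in FSK against DMSO, DHPG against DMSO and FSK against DHPG. Of 14 pairs of equal number across treatments 3 deviated together at r over 0.1 (-0.41 to 0.39). The deep and shallow split was not removed first, so this check cannot decide whether the numbers pair the samples. Of 3036 single-gene values under alternatives, 138 changed sign with neither value past the limit. Summing with nuclear copies, the block sum and the fit combining the term with the removal of FSK 4 and FSK 5 were chosen after seeing the data. tRNA counts limit those rows to counting error, and the split with nuclear copies limits mt-Co1 to mt-Nd4l.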
